A study of Homo sapiens with 4 samples.

Results

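RNA recovered with nuclear SRP9 variant 1 was compared directly with RNA recovered with nuclear SRP9 variant 2, using 1 RNA immunoprecipitation (RIP) library for each. The comparison covers the 26767 Ensembl gene IDs, of 60676 listed, that had at least 50 counts in the higher of the pair of RIP libraries. Both libraries came from MiaPaCa, a human cell line established from a pancreatic cancer. The cells of one library were transfected with SRP9 v1 and those of the other with SRP9 v2, each carrying a nuclear localisation signal and a FLAG tag on a vector that also encodes the green fluorescent reporter acGFP1. Both lines were electroporated, selected with Geneticin, sorted on the reporter and grown in RPMI1640 with serum, and the labels give no other treatment. The tagged protein was made from the vector in selected cells, and the labels do not say whether the cells' own SRP9 was removed. A library of whole-cell RNA (input) from each line is set beside the RIP values. A precipitation from cells without tagged SRP9 was not analysed here.

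SRP9 is a subunit of the signal recognition particle, the ribonucleoprotein that brings ribosomes making secreted and membrane proteins to the endoplasmic reticulum. It works as a heterodimer with SRP14, and the pair holds the part of the particle's RNA called the Alu domain and slows elongation on the ribosome. The same fold recognises RNAs related to that domain, which are transcribed from Alu elements, and parts of the particle are assembled in the nucleus. The series asks what the variants do once they are sent to the nucleus. How the variants differ in sequence is not stated in the labels.

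The IDs could not be turned into gene names. The reference table of 59792 genes pairs 0 of them with an Ensembl ID, and 0 of the listed IDs were matched. The 24 gene lists, the cell type markers and the transfected gene itself could therefore not be read, and whether the libraries bear out their labels was not checked. The results below describe groups of gene IDs by their level, their input and their counts, and give 4 IDs in full. With 1 library on each side there is no replicate and no test. Intervals are 95% and cover counting error only, as amplified reads are not independent molecules.

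RIP variant 1 totalled 3921361 counts and RIP variant 2 totalled 5211354, against 50454080 and 58815384 in the inputs. Values are given as counts per 1000000 counts of the library (CPM). The minimum of 50 counts equals 12.8 CPM with variant 1 but 9.59 CPM with variant 2, so an ID can be eligible through variant 2 at a level that would not pass through variant 1. A log2 ratio is that of variant 1 over variant 2 with a prior count of 2.

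Most eligible gene IDs, 17503 of 26767, were recovered within 2-fold of each other with both variants. The median log2 ratio over the 26767 eligible IDs was -0.08, and the middle of the distribution ran from -0.79 at the lower quartile to 0.58 at the upper. At least 2-fold higher with variant 1 were 3885 IDs, which is 14.5% of those eligible. At least 2-fold higher with variant 2 were 5379 IDs, or 20.1%. Which side held more IDs depended on the minimum: with 50 counts required in each RIP library, 1638 were higher with variant 1 and 935 with variant 2, with a median log2 ratio of 0.11. A difference of at least 4-fold was reached by 1047 IDs in favour of variant 1 and by 2107 in favour of variant 2.

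Most of the larger number for variant 2 came from the IDs that the count minimum admits in the deeper library only. Of the eligible IDs, 2431 lay under 12.8 CPM in both libraries and had thus entered through variant 2. Among them 1245 were at least 2-fold higher with variant 2 and 0 with variant 1, a direction that the minimum itself fixes. With a minimum of 12.8 CPM for both libraries, 24336 IDs were left, of which 3885 were higher with variant 1 and 4134 with variant 2. Their median log2 ratio was 0.02. Of the calls among these 24336 IDs, 48.4% were higher with variant 1, against 41.9% with the minimum of 50 counts. With 12.8 CPM required in each of the libraries, 1128 of 15884 IDs were higher with variant 1 and 935 with variant 2, so the larger number was then that of variant 1. Just inside the limit, the 1345 IDs with 50 to under 55 counts in the higher library had 22.5% higher with variant 1 and 32.5% with variant 2. Just outside, the 1468 IDs with 45 to under 50 counts had 21.9% and 34.1%.

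**Figure D1:**
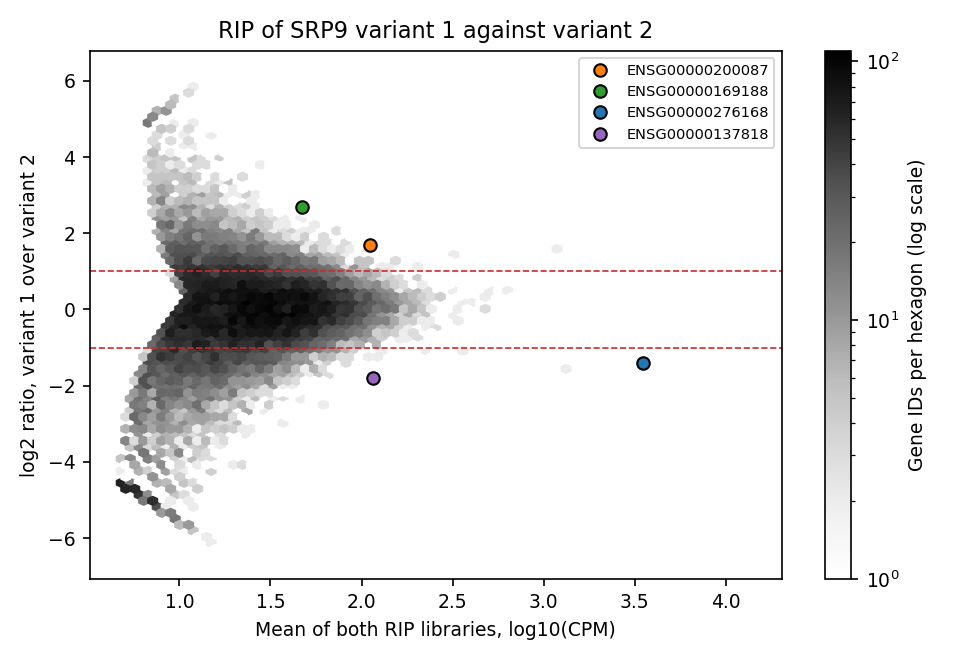
Each hexagon holds gene IDs by the mean of both RIP libraries (x axis, log10 of CPM) and the log2 ratio of variant 1 over variant 2 (y axis), darker with more IDs. The dashed lines mark 2-fold, the coloured points are the 4 IDs described in the text, and the scatter narrows as the level rises from 10 CPM to 200 CPM.

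The share of IDs that differed fell with the level and rose again at the top. Between 10 and 20 CPM, averaged over both RIP libraries, 19.4% of 8792 IDs were at least 2-fold higher with variant 1 and 22.0% with variant 2. Between 20 and 50 CPM the shares were 12.5% and 11.2% of 9912 IDs, and between 50 and 100 CPM 6.40% and 3.92% of 3624. They were lowest between 100 and 200 CPM, with 31 and 15 of 771 IDs (4.02% and 1.95%). Of the 122 IDs between 200 and 500 CPM, 9 were higher with variant 1 and 7 with variant 2. Of the 33 IDs from 500 CPM up, 3 were higher with variant 1 and 4 with variant 2, and 0 IDs in either of these groups reached 4-fold. Repeated IDs are each counted here. Of the 3, 2 had the same values in every library, and of the 4, 2 had values within 1% of each other in every library.

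An interval of counting error was set on each ratio, with each read taken as an independent molecule. Amplified reads are not, so the intervals may be too narrow. The interval of the ratio lay wholly past 2-fold for 2106 IDs in favour of variant 1 (7.87%) and for 3163 in favour of variant 2 (11.8%). It lay wholly within 2-fold for 11769 IDs (44.0%). For 7779 IDs (29.1%) it included equal levels. These intervals do not cover the variation between precipitations or between library preparations, which 1 library a side cannot measure.

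Fewer IDs were 2-fold apart in the whole-cell RNA of the same lines once library totals were matched. At full depth, 18917 IDs reached 50 counts in one input or the other. A 2-fold difference in favour of the cells with variant 1 was seen for 10.3% of them and in favour of those with variant 2 for 11.4%, with the minimum lying at 0.991 and 0.850 CPM. The inputs were therefore thinned at random to the totals of the RIP libraries, 3921631 and 5209800 counts, and the same minimum was applied. Of the 10212 IDs then eligible, 1.02% were higher with variant 1 and 2.43% with variant 2. Over the 9471 IDs eligible both in RIP and in the thinned inputs, 22.7% were at least 2-fold apart between the RIP libraries and 3.11% between the thinned inputs. The SD of their log2 ratio was 0.95 in RIP and 0.41 in the thinned inputs. At matched totals the RIP ratios of these IDs were thus more spread than the input ratios. Only the totals were matched, not how the counts were spread over IDs. With 1 library a side, the variant and the single precipitation made with it cannot be told apart.

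**Figure D2:**
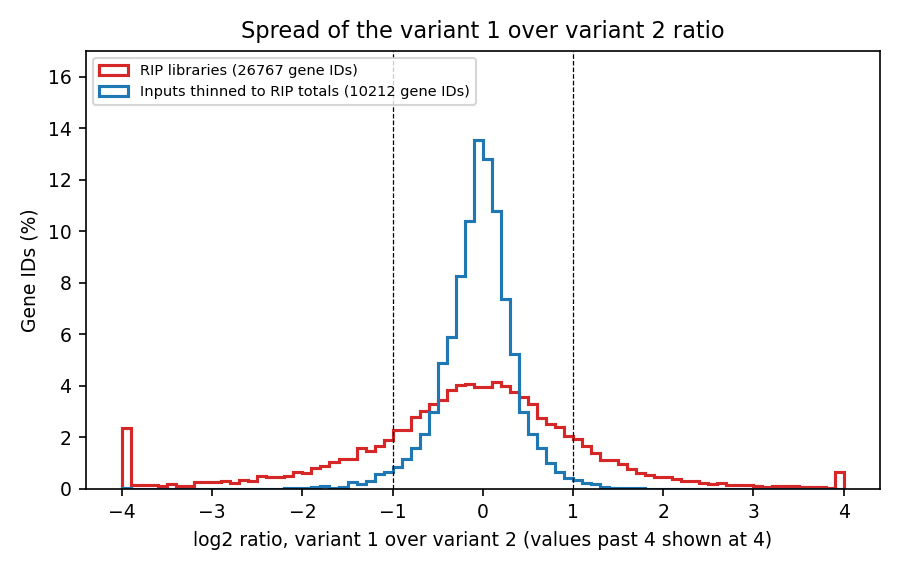
Distribution of the log2 ratio of variant 1 over variant 2 (x axis) as the percentage of gene IDs (y axis) in the RIP libraries (26767 IDs) and in the inputs thinned to the same totals (10212 IDs). The dashed lines mark 2-fold, and the RIP curve is the wider one, with 14.5% of IDs past the line on the side of variant 1 and 20.1% on that of variant 2. The curves hold unlike sets of IDs. Over the 9471 IDs eligible in both, not drawn, 22.7% were at least 2-fold apart in RIP and 3.11% in the thinned inputs.

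The gap between RIP and input held at every level from 10 CPM up. Between 50 and 100 CPM, 3 of 2051 IDs were 2-fold apart in the thinned inputs (0.146%) against 10.3% of IDs at that level in RIP. From 200 CPM up, 0 of 653 and 0 of 252 IDs were 2-fold apart in the thinned inputs.

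**Figure D3:**
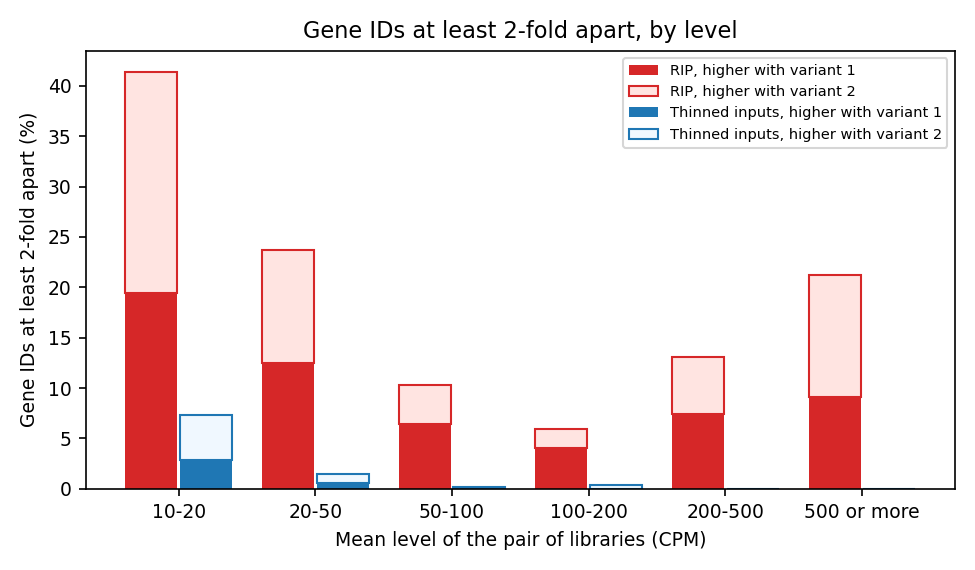
Percentage of gene IDs at least 2-fold apart (y axis) by the mean CPM of the pair of libraries (x axis), in the RIP libraries and in the inputs thinned to the RIP totals, split by the variant with the higher level. The RIP bars fall from 41.4% at 10 to 20 CPM to 5.97% at 100 to 200 CPM and reach 21.2% from 500 CPM, and the input bars fall from 7.30% to 0. IDs of identical values are each counted.

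The IDs that differed carried the lesser part of the reads. Those at least 2-fold higher with variant 1 took 13.6% of the counts in RIP variant 1 and 4.68% in RIP variant 2. Those higher with variant 2 took 4.54% and 14.6%. The 17503 IDs within 2-fold held 74.6% and 72.7% of the counts. In the inputs the IDs higher with variant 1 in RIP held 7.56% and 7.52% of the counts, and those higher with variant 2 held 11.1% and 11.3%, so neither group differed by much as a whole between the lines.

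The IDs that differed in RIP did not favour the same line in whole-cell RNA. Of those higher with variant 1 in RIP, 1643 also reached 50 counts in an input. Among these, 10.2% were 2-fold or more higher in the input of variant 1 and 11.6% in that of variant 2. Among the 2333 IDs higher with variant 2 in RIP, the input shares were 11.5% and 12.04%. All IDs eligible in RIP and in the inputs had shares of 8.99% and 8.85%, and those within 2-fold in RIP 8.26% and 7.75%, so both groups had somewhat more IDs apart in the inputs, in either direction. The median log2 ratio of the inputs was -0.03 for each group.

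Over all eligible IDs, those without input reads were more often apart. Of the 6274 eligible IDs with 0 counts in both inputs, 22.1% were higher with variant 1 and 27.2% with variant 2. The shares were 15.1% and 23.6% of the 5666 IDs with fewer than 50 counts in the higher input, 14.2% and 20.3% of the 5010 with 50 to under 500, and 10.3% and 14.7% of the 7295 with 500 to under 5000. They were lowest for the 2522 IDs with 5000 or more, with 7.06% and 9.44%. Within the higher inputs the order did not go on falling: the share apart either way was 13.6% of 656 IDs at a mean input of 200 to 500 CPM, 16.6% of 163 at 500 to 1000 CPM and 21.2% of 85 from 1000 CPM. The level in RIP was not held fixed along this order, and IDs of identical or nearly identical values are each counted. Among the IDs with 200 counts in each RIP library, described further on, the share apart did not fall with the input. It was 2.65% at an input under 1 CPM, between 2.97% and 5.26% in the groups from 1 to 500 CPM, and 17.98% from 500 CPM.

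Each variant's RIP was also set against its own input for the eligible IDs that reached 50 counts in an input. The RIP libraries enter both this ratio and the choice of the IDs, so the order between the variants is fixed by that choice. For IDs higher with variant 1, RIP stood over input by a median log2 ratio of 1.54 for variant 1 and -0.16 for variant 2. For IDs higher with variant 2 it was -0.79 with variant 1 and 1.17 with variant 2. For the 10851 IDs within 2-fold it was 0.59 and 0.52. These ratios shift together with the scaling: over all 14827 such IDs the median was 0.52 with variant 1 and 0.56 with variant 2 on library totals, -0.95 and -0.70 with TMM factors, and -0.32 and -0.28 with DESeq2 size factors. The direction against the input therefore depends on the scaling, and all RIP levels set against the input here are on library totals. The median ratio between the RIP libraries, over the 26767 eligible IDs, moved by less, from -0.08 to -0.07 and -0.02. Some IDs had a RIP level at least 2-fold above the input with one variant and at least 2-fold below it with the other. This was seen for 50 of the 1643 IDs higher with variant 1 and for 162 of the 2333 higher with variant 2.

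Most of the 10 most abundant IDs of the RIP libraries were nearly level. Of the 10 IDs with the highest mean over both RIP libraries (2231 to 13613 CPM, counting IDs of identical values once), 9 had a log2 ratio between -0.01 and 0.30. The exception was ENSG00000276168. It had 7567 counts (1930 CPM, interval 1886 to 1974) in RIP variant 1 and 26468 counts (5079 CPM, interval 5018 to 5140) in RIP variant 2. In the inputs it had 12775 CPM with variant 1 and 13239 CPM with variant 2. Its level was thus 2.63-fold higher with variant 2 (interval 2.57 to 2.70) while the inputs differed by a factor of 0.965. Both RIP levels were below the input, by a factor of 6.62 with variant 1 and of 2.61 with variant 2. Its RIP counts hold a fraction of a read, and how fractions arose is not stated. Of the 100 most abundant IDs, 8 were at least 2-fold higher with variant 1 and 8 with variant 2, and 71 of the top 100 of each library were shared.

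Well-counted IDs that differed, in either direction, more often had a high input level than those that did not. A count of 200 or more in each RIP library was found for 3906 IDs, taking 1 ID per set of identical values. This minimum, a higher CPM in variant 1, favours variant 1, and the median log2 ratio of these IDs was 0.18. Among these IDs, 140 were at least 2-fold higher with variant 1 and 41 with variant 2. An input mean of at least 500 CPM was found for 20 of the 41 (48.8%), for 21 of the 140 (15.0%) and for 187 of the 3725 IDs within 2-fold (5.02%), a limit chosen after the values were seen. Among the 228 IDs of that input level the directions were even, at 9.21% and 8.77%. The count minimum asks for a higher RIP level of IDs that favour variant 2, whose median was 116 CPM against 80.6 CPM. With 51.0 CPM required in each RIP library, the input limit was met by 18 of 62 IDs higher with variant 1 (29.0%), by 20 of 41 higher with variant 2 (48.8%) and by 222 of all 3109 (7.14%). The median input was 423 CPM for the 41, 85.1 CPM for the 140 and 37.4 CPM for the rest. With 51.0 CPM required in each RIP library it was 423 CPM for the 41 and 236 CPM for the 62, so the directions lay closer. For 25 of the 41 the RIP level was at least 2-fold below the input with both variants, against 32 of the 140. The same held for 634 of the 3725 IDs within 2-fold and for 691 of all 3906. The input level was not held fixed between these groups. Of the 41, 25 (61.0%) held a fraction of a read in a RIP library, against 47 (33.6%) of the 140 and 1602 (43.0%) of those within 2-fold. Among the 41, 2 IDs had values within 1% of each other in every library and are not independent. Whether others of the 41 share reads was not tested, so the 20 of 41 may count the same RNA more than once. The 10 furthest in favour of variant 2, which include both, had input levels of 554 to 12775 CPM with variant 1 and RIP levels below the input with both variants. The 10 furthest in favour of variant 1 ran from 0.88 to 1250 CPM in the same input.

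**Figure D4:**
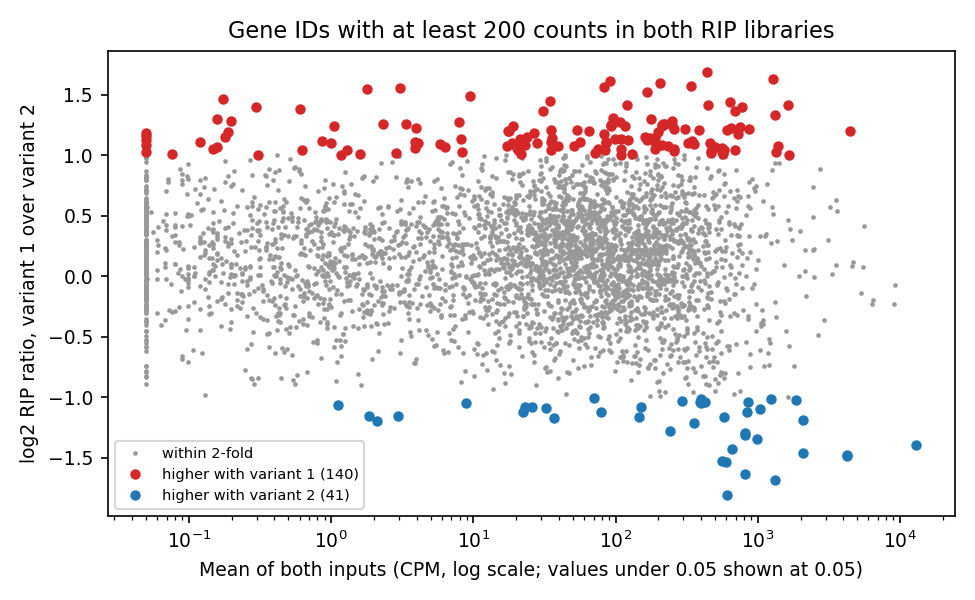
Gene IDs that reached 200 counts in each RIP library, by the mean of both inputs (x axis, CPM on a log scale) and the log2 RIP ratio of variant 1 over variant 2 (y axis). The 41 IDs higher with variant 2 lie further to the right, with a median input of 423 CPM, and the 140 higher with variant 1 are spread over the whole range, with a median of 85.1 CPM. The count minimum is a higher CPM in variant 1. With 51.0 CPM required in each RIP library the median for variant 1 was 236 CPM, over 62 IDs.

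At the lower end of this group stood ENSG00000137818. It had 201 counts (51.3 CPM, interval 44.4 to 58.9) in RIP variant 1 and 943 counts (181 CPM, interval 170 to 193) in RIP variant 2. Its inputs were 599 CPM and 626 CPM. It was 3.53-fold higher with variant 2 (interval 3.03 to 4.13), and its RIP level was below the input by a factor of 11.7 with variant 1 and of 3.46 with variant 2. The inputs are nearly level. This ID and the next were picked as the furthest each way of the 3906 IDs. RIP intervals that lie apart follow from that choice and are no support for a difference.

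At the upper end stood ENSG00000200087. It had 670 counts (171 CPM, interval 158 to 184) in RIP variant 1 and 275 counts (52.8 CPM, interval 46.7 to 59.4) in RIP variant 2. Its inputs were 437 CPM and 442 CPM. The level was 3.24-fold higher with variant 1 (interval 2.81 to 3.74). Like the previous ID it was below its input with both variants, by a factor of 2.56 with variant 1 and of 8.38 with variant 2.

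A further set was restricted to IDs that reached 50 counts in every library and whose inputs differed by at most 0.32 on the log2 scale. It held 6449 IDs, of which 535 were at least 2-fold higher with variant 1 and 383 with variant 2. The count minimum favours variant 1 here too, and with 12.8 CPM required in each RIP library the counts were 440 and 383 of 6213. The 5 furthest in favour of variant 1 differed 4.97-fold to 6.67-fold, and the 5 furthest in favour of variant 2 5.01-fold to 6.04-fold. ENSG00000169188 differed most. It had 321 counts (81.9 CPM, interval 73.1 to 91.3) in RIP variant 1 and 64 counts (12.3 CPM, interval 9.46 to 15.7) in RIP variant 2, against inputs of 33.2 CPM and 38.1 CPM. It was 6.67-fold higher with variant 1 (interval 5.08 to 8.86), an interval that does not allow for its choice as the furthest of the 6449. With variant 1 its RIP level was 2.47-fold above the input, and with variant 2 it was below the input by a factor of 3.10, so the input lies between both RIP levels. With TMM factors both RIP levels were below the input, at log2 ratios of -0.18 and -2.88.

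**Figure D5:**
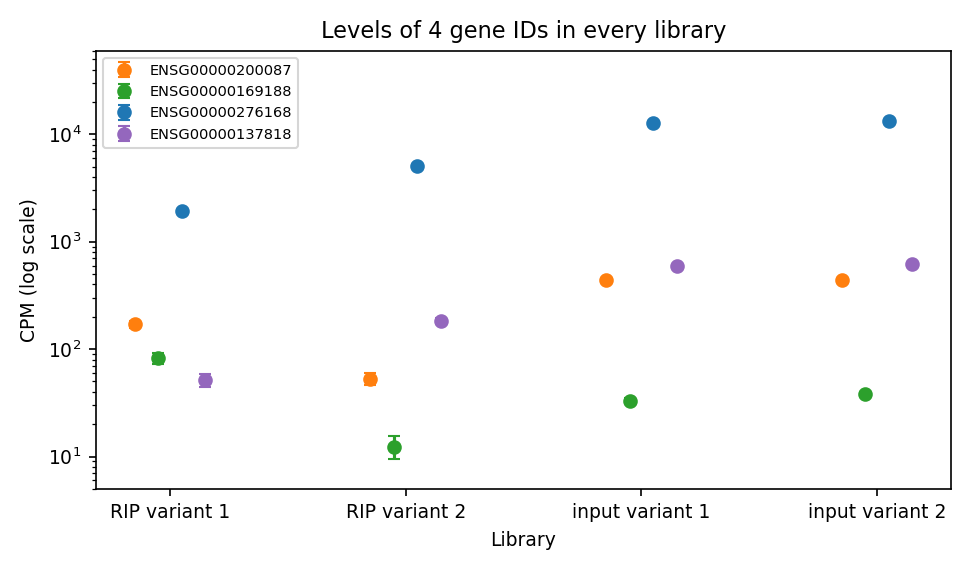
CPM on a log scale (y axis) of the 4 gene IDs in each library (x axis), with 95% exact Poisson intervals where wider than the points. Each ID has nearly the same level in both inputs, and the RIP levels differ from 2.63-fold to 6.67-fold between the variants.

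The widest ratios came from IDs with no count in one of the RIP libraries. The 10 furthest in favour of variant 1 had 76 to 121 counts with variant 1 and all had 0 with variant 2, which makes them at least 33.7-fold to at least 53.6-fold higher against a floor of 3 counts per library. The floor leaves out the counting error of the higher library, and the lower limits of the intervals, which include it, ran from 26.7-fold to 42.9-fold. Of these, 6 had 0 counts in both inputs. Of the 10 furthest in favour of variant 2, with 126 to 196 counts, 9 had 0 counts with variant 1, and 3 had 0 in both inputs. Among all eligible IDs higher with variant 1, 66 had 0 counts in RIP variant 2, and among those higher with variant 2, 444 had 0 in RIP variant 1. Over all 60676 listed IDs, 44658 had a count in RIP variant 1 and 51589 in RIP variant 2, the deeper library. The minimum also admits lower levels through variant 2 only. The floor of 3 counts is 0.765 CPM for variant 1 and 0.576 CPM for variant 2, and the upper limit of the exact Poisson interval of a 0 is 0.941 and 0.708 CPM.

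IDs whose RIP values were whole numbers were more often apart than those that held a fraction of a read. The shares were 16.3% higher with variant 1 and 21.8% with variant 2 of 18076 IDs, against 10.9% and 16.5% of 8691. The level in RIP was not held fixed between these groups, and the part of the fractions in this was not tested. Of the eligible IDs, 1600 fell into 671 sets with the same values in every library and are not independent of each other. IDs next to each other in the files had ratios with a Pearson correlation of 0.02, over 26766 neighbouring pairs of eligible IDs, which share both libraries.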

How the data were processed

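RNA was sequenced in 4 libraries of 1 sample each (RIP and input for each variant). Per the submitters' processing notes, HISAT2 2.1.0, featureCounts and Subread 2.0.0 were used with build GRCh38.p13. Not given in the sources used here: annotation release, strandedness, and how reads with several alignments were handled. The authors deposited estimated counts per Ensembl ID, not normalized as far as the differing totals show. Values were divided by library totals to give CPM. The log2 ratio used a prior count of 2 scaled to library size. An ID was eligible from 50 counts in the higher RIP library and was counted as apart from 2-fold. Intervals on rounded counts were exact Poisson for CPM and Clopper-Pearson for ratios, and a 0 was set to 3 counts. Scaling factors came from edgeR 4.0.16 and DESeq2 1.42.0 (R 4.3.3), and the rest from Python 3.11.15 with scipy 1.17.1. The ratio and its interval were checked on simulated data.

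The members and lists were chosen with earlier results of these data known. IDs were picked by rule: the 10 furthest each way, the same from 200 counts in both RIP libraries, the 10 most abundant, and 5 each way with inputs at most 0.32 apart on the log2 scale. Parts of the rule that needed gene names could not be applied. Because IDs have no names, at most 2 each way are printed, and which of the rule's IDs are printed was decided after their values were seen.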

Additional observations from a re-analysis of the deposited data

Results flagged for a closer look

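Of the printed IDs, only ENSG00000169188 had a RIP level that went opposite ways from the input with the variants on library totals. On library totals, RIP stood over input at a log2 ratio of 1.30 for variant 1 and -1.63 for variant 2, so the variants lay 2.93 apart. With TMM scaling the ratios were -0.18 and -2.88 and with DESeq2 size factors 0.46 and -2.47, so the sign for variant 1 depends on the scaling while the variants lay 2.71 and 2.93 apart. The difference was not tested, as each ratio rests on 1 RIP library and 1 input. Beyond the printed IDs this pattern was seen for a small part of the IDs. Of the IDs higher with variant 1, 1643 reached 50 counts in an input. ENSG00000169188 was 1 of 50 among them that lay at least 2-fold above the input with variant 1 and 2-fold below it with variant 2. The reverse was seen for 162 of the 2333 such IDs higher with variant 2. ENSG00000169188 was picked for its ratio between the RIP libraries, so the wide gap between the variants follows from that choice.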

How the results depend on the processing

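The counts of IDs past 2-fold (3885 higher with variant 1, 5379 with variant 2) stayed within 1.5 times of these under TMM factors of all 4 or of both RIP libraries, DESeq2 size factors, prior counts of 0.5 and 10, thinning of RIP variant 2, whole values only, 1 ID per set of identical values and a minimum of equal CPM. They moved under other minimums, which admit other IDs by construction, and under subtraction of the input difference. A minimum of 20 counts gave 6625 and 9681, a minimum of 200 gave 598 and 828, and no minimum gave 9717 and 16058 (median log2 ratio -0.24). A minimum of 50 counts in each RIP library gave 1638 and 935 (median 0.11), so the direction of the excess turned. IDs with 50 counts in the higher input gave 1643 and 2333, and the same IDs 2583 and 3136 after the subtraction, of which 1264 and 1817 were among the 3885 and 5379, while 99 IDs turned to variant 1 and 70 to variant 2. The inputs' own counts, 1954 and 2159, were 104 and 248 after thinning to the RIP totals. The 4 printed IDs kept their direction and stayed past 2-fold under each scaling, prior count and the subtraction. ENSG00000276168 left its interval of counting error with DESeq2 size factors and with the subtraction, at a log2 ratio of -1.34 each, against -1.40. The other printed IDs stayed within theirs. The minimums of equal CPM, 50 counts in the higher input without subtraction and thinned inputs were chosen after seeing the data. The lists and the setting on protein-coding genes were not run, for want of gene names. Leaving out a library was not possible with 1 a side. Depth limits what a 0 can show in the RIP libraries.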
